A study of Drosophila melanogaster with 6 samples.

Results

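Head-to-head gene pairs are neighbours on opposite strands whose transcription starts face away from each other across a short stretch of shared DNA. They were taken from the Drosophila melanogaster annotation as a protein-coding gene on the minus strand followed by a protein-coding gene on the plus strand, with the 5′-most starts 0 to 500 bp apart and no other annotated gene between the starts. The rule gave 1612 pairs that hold 3295 of the 13968 protein-coding genes on the chromosome arms (23.6%), and the other 10673 genes are called unpaired here. The rule used no measured value. At each pair the question was whether the interval between the starts, both starts included, carried a binding site of the tagged Cyclin G, and where in the interval the site lay.

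The study immunoprecipitated Myc-tagged Cyclin G from chromatin of wing imaginal discs, the larval tissue that forms the wing, of female larvae of the third instar raised at 25 °C. Discs of the genotype UAS-Myc-CycGdeltaP, da-Gal4/+ gave 2 anti-Myc ChIP libraries and 2 inputs of the same chromatin, and da-Gal4/+ discs without the transgene gave 1 mock ChIP and 1 mock input. Both genotypes carry the da-Gal4 driver, which is active in all cells. Myc-CycGΔP is a truncated form without the C-terminal PEST stretch, the discs also held the endogenous Cyclin G, and each ChIP pooled 600 discs. The authors deposited 1 list of 3363 peaks that were reproducible between the 2 replicates. The list gives no height, no score and no value per sample, so a pair is either bound or not, and every interval printed below covers only the counting error over pairs or starts. The depth behind a peak is unknown, and the mock ChIP was not used in the peak calling.

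Divergent promoters are common in the compact fly genome, and many of them serve genes that are active in most cells. Such promoters often lack a TATA box and an initiator and carry other elements. Among these are the DNA replication-related element (DRE), which is bound by DREF, the CGATA sequence bound by the boundary protein BEAF-32, and Motif 1, which is bound by M1BP. Cyclin G is a transcriptional cyclin that interacts with the chromatin regulators Corto and Asx.

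The intervals below show the sequence between the starts of selected pairs, which is not the span of the peak. Each is the plus strand of dm6 from the start of the minus-strand gene, which is the first base, to the start of the plus-strand gene, which is the last base. Capitals mark matches to TATCGATA (the DRE), to CGATA or its reverse complement TATCG, or to Motif 1, Motif 6 or Motif 7. The DRE contains CGATA on both strands. The first set holds bound pairs in which 1 peak covered both starts.

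Rpt4 and mldr (chrX:6291245-6291303): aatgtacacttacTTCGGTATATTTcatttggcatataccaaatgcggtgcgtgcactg
Trmt112 and Ilk (chr3L:21216839-21216901): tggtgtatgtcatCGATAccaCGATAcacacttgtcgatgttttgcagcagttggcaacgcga
Ripalpha and RpL7 (chr2L:10200974-10201004): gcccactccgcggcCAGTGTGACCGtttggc
sta and inc (chrX:1483413-1483479): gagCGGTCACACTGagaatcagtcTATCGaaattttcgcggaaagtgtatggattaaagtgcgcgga
Arpc1 and Orc5 (chr2L:13829741-13829837): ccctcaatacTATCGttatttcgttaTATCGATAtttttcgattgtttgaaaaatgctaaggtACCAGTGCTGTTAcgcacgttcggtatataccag
ball and His2Av (chr3R:26866807-26866929): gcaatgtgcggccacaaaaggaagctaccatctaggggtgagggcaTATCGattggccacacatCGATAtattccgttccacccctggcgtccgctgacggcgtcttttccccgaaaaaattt

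The capitals mark Motif 6 in the interval of Rpt4, an ATPase subunit of the proteasome cap. They mark 2 copies of CGATA on the same strand between Trmt112 and Ilk, the integrin-linked kinase, and CGATA on each strand between ball, a kinase of nucleosomal histones, and His2Av, the histone variant of the H2A.Z type. Motif 1 lies within the 31 bases between Ripalpha and RpL7, a protein of the large ribosomal subunit, and stands beside CGATA between sta, a protein of the small subunit, and inc. The interval of Arpc1, a subunit of the actin-nucleating Arp2/3 complex, and Orc5, a subunit of the origin recognition complex, holds a DRE, a further CGATA and Motif 7. Of these 6 pairs, Rpt4 and mldr and Trmt112 and Ilk followed from the rule for sequences, and the others were chosen after their values were seen. Not every pair of this kind holds a marked motif between its starts. Nelf-E and RpL14, 127 bp apart with both starts in 1 peak, have none there. Unbound pairs often carry the same motifs, as counted below.

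The second set, also chosen after the values were seen, holds pairs in which the peak covered 1 start, a pair in which it covered neither start, and an unbound pair.

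RpS25 and CG4820 (chr3R:11216287-11216535): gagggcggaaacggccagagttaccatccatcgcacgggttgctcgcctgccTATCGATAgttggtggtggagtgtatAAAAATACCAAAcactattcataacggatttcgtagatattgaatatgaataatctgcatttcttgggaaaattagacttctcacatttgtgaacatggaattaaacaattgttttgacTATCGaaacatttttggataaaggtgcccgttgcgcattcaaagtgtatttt
CG3104 and RpS21 (chr2L:2855778-2856070): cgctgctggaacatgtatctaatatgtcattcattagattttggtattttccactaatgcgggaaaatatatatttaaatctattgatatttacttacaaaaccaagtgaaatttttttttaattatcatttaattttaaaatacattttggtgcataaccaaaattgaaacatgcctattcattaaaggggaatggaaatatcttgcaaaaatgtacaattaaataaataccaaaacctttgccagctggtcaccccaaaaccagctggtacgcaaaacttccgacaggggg
Pop2 and CG6928 (chr3L:12002915-12003155): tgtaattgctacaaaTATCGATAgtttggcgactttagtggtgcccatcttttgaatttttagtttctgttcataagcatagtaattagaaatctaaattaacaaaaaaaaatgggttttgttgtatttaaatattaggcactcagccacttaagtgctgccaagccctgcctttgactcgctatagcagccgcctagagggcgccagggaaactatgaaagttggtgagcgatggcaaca
TH1 and mei-41 (chrX:16391438-16391698): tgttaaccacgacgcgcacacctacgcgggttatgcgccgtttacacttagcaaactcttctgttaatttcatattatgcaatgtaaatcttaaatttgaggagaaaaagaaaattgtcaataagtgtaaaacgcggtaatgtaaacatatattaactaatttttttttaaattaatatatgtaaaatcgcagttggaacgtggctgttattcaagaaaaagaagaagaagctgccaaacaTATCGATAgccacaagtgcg
Dref and RpL13 (chr2L:9967229-9967313): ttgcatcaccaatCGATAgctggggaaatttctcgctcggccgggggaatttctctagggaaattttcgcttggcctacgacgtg

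Between RpS25 and CG4820 the peak covered the start of RpS25, a protein of the small ribosomal subunit, and the DRE and Motif 6 lie on that side of the interval. The interval of CG3104 and RpS21 holds none of these motifs, although the peak covered the RpS21 start. At Pop2, the deadenylase of the CCR4-NOT complex, the peak centre lay 125 bp upstream of Pop2 and 115 bp upstream of CG6928. The peak began 3 bp inside the interval, so that only the CG6928 start was covered, while the DRE lies near Pop2. Between TH1, a subunit of the negative elongation factor, and mei-41, the fly ATR checkpoint kinase, the peak ended 30 bp before mei-41, and the DRE lies between the end of the peak and mei-41. The interval of Dref, which encodes the DRE-binding factor, and RpL13 was unbound and holds CGATA.

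Of the 1612 pairs 189 were bound (11.7%, 95% Wilson interval 10.2 to 13.4). The replication-dependent histone genes, which stand in tandem copies of 1 repeat, made 42 of the pairs and 41 of the bound ones. These 41 pairs lay under 24 peaks with a median width of 4152.5 bp, and none of the peaks was in unique sequence (0 of 41 pairs, which allows a share of up to 7.32%). Reads there cannot be assigned to 1 copy, so the histone pairs are left out of everything that follows. Of the other 1570 pairs, 148 were bound (9.43%, 8.08 to 11), each by a peak of its own, and all 148 peaks lay in sequence whose every 75-bp word occurs once in the genome.

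Paired starts were inside a peak more often than unpaired starts. With histone genes included, 9.14% of the 3295 paired starts were covered, against 4.09% of the 10673 unpaired starts and 5.28% of all protein-coding starts. Without histone genes the shares were 6.82% (219 of 3211 paired starts, 6 to 7.74) and 3.92% (417 of 10646 unpaired starts, 3.56 to 4.3), against 4.59% of all starts. The difference was 2.9 percentage points (95% Newcombe interval 2 to 3.89). Because both starts of a pair can share a peak, paired starts are not independent, and this interval is too narrow by an unknown amount. The share itself is also raised, here and in the shares by starts below, because 1 peak counted for both starts in 71 of the 148 bound pairs. By gap class, the share of paired starts covered ran from 4.77% (3.55 to 6.39) to 13.3% (10.6 to 16.5). Windows that count each pair once gave a difference of 5.09 points (3.67 to 6.69): a peak lay within 250 bp of the midpoint in 151 of 1570 pairs (9.62%) and within 250 bp of the start in 482 of 10646 unpaired genes (4.53%), against 6.43% of all starts with histone genes included. Restricted to windows in unique sequence, the shares were 9.71% of pairs and 4.36% of unpaired genes. A pair window holds both promoters, and the transcription of the genes was not measured by this list, so its part in the difference was not tested.

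The share of starts covered was above that of unpaired starts on each of the large arms, by different amounts. On the X chromosome 12.3% of paired starts (58 of 472, 9.63 to 15.6) and 6.38% of unpaired starts (110 of 1724, 5.32 to 7.63) were covered. On arm 3R the shares were 6.86% of paired and 3.24% of unpaired starts, on 3L 6.19% and 2.84%, on 2R 5.41% (3.9 to 7.47) and 3.51% (2.82 to 4.36), and on 2L 4.32% (2.94 to 6.3) and 3.41% (2.69 to 4.3). On 2R and 2L the intervals of paired and unpaired starts overlapped. Counted as pairs, 38 of 233 were bound on the X (16.3%, 12.1 to 21.6), against 110 of 1337 elsewhere (8.23%, 6.87 to 9.82). The libraries came from female larvae, which carry a pair of X chromosomes. Chromosome 4 held only 5 pairs, of which 1 was bound.

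**Figure D1:**
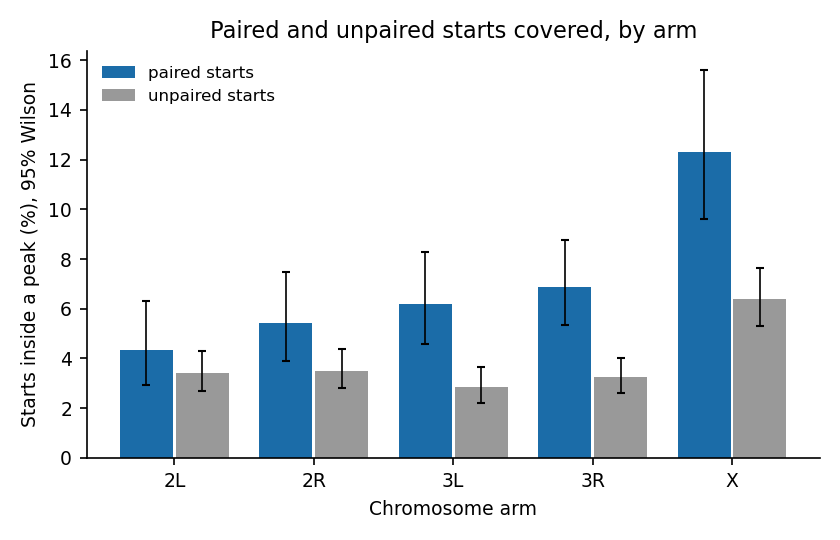
Percent of 5′-most starts inside a Myc-CycGΔP peak on each large chromosome arm, for paired starts (blue) and unpaired starts (grey), with 95% Wilson intervals and without histone genes. The X has the highest bars of both kinds, 12.3% of paired and 6.38% of unpaired starts, and the bars are closest on 2L.

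A peak at a pair covered both starts about as often as it covered 1. Of the 148 bound pairs, 71 had both starts inside the peak (48%, 40.1 to 56), 72 had 1 start inside it (48.6%, 40.7 to 56.6) and 5 had neither (3.38%). The covered start was that of the minus-strand gene in 33 pairs and that of the plus-strand gene in 39. No bound pair had more than 1 peak over its interval. The gap separated the classes: the median distance between the starts was 135 bp where both were covered and 333 bp where 1 was, while the peaks had median widths of 311 and 316 bp. Peaks in unique sequence had a median width of 312 bp at the 148 pairs (300 to 329) and of 308 bp at 369 peaks over single unpaired starts (300 to 314). Up to a gap of 200 bp, 52 of 56 bound pairs had both starts covered (92.9%). Above 200 bp, 68 of 92 had 1 start covered (73.9%, 64.1 to 81.8). This split is set in part by the peak widths. The narrowest peak at a bound pair was 189 bp wide, so a peak centred on a narrow gap spans both starts, and a peak narrower than the gap cannot. A peak wider than the gap was found at 111 of the 148 pairs, and 71 of the 111 covered both starts (64%).

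**Figure D2:**
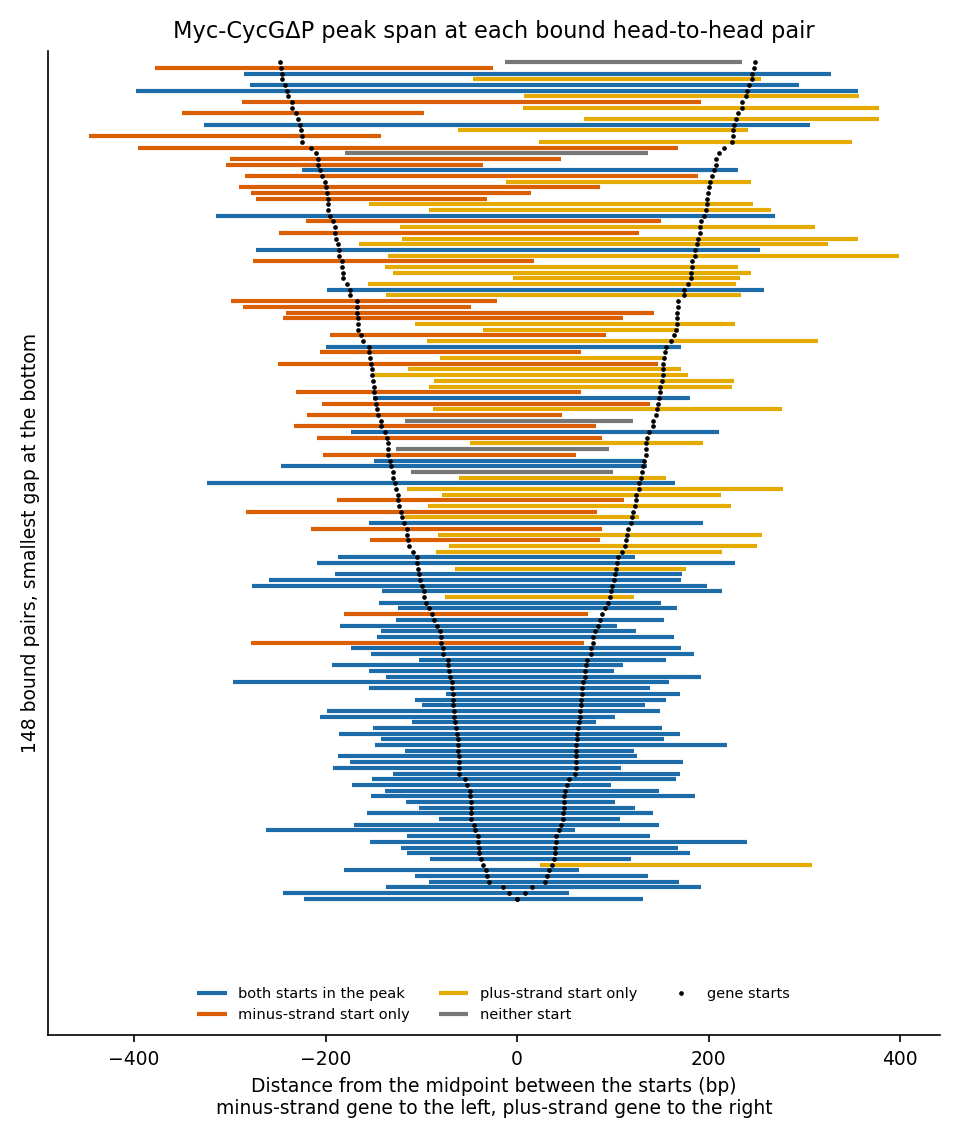
Span of the peak (coloured line) and position of both gene starts (black dots) at each of the 148 bound pairs, in bp from the midpoint between the starts, with the smallest gap at the bottom. Peaks of the narrow pairs span both starts (blue), and towards the top most peaks lie over 1 start, in either direction (orange and yellow).

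The peak centre lay between the starts in 137 of 148 bound pairs (92.6%, 87.2 to 95.8). Its median distance from the midpoint was 42.5 bp, with 19.5 bp where both starts were covered and 73.8 bp where 1 was. It was displaced towards the plus-strand gene in 78 pairs and towards the minus-strand gene in 70. In pairs with 1 start covered, the centre lay a median of 74.5 bp upstream of the covered start (58.5 to 85.5) and 230 bp upstream of the other one. At peaks over single unpaired starts it lay 76 bp upstream (69.5 to 79.5, 369 peaks). The pairs with 1 start covered are themselves chosen by where the peak lay. By gap class the median distance to the nearer start was 33.5 bp at gaps of up to 100 bp, 48.2 at gaps over 100 and up to 200, 73 at those up to 300, 108 at those up to 400 and 119 at those up to 500. The farther start was at 60, 95, 178, 233 and 332 bp in the same classes.

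**Figure D3:**
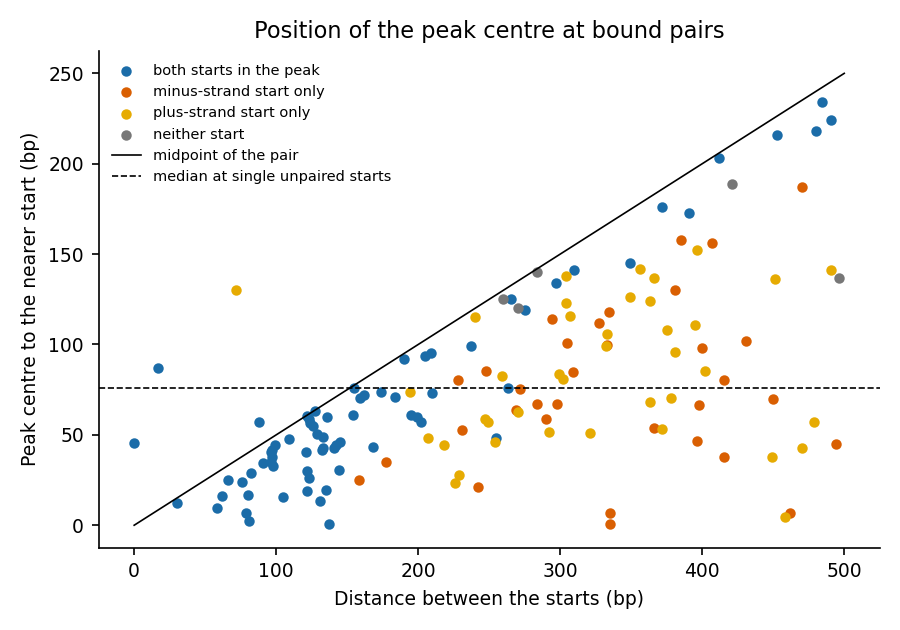
Distance from the peak centre to the nearer of both starts (bp) against the distance between the starts (bp), 1 point for each of the 148 bound pairs, coloured by which starts the peak covered. The solid line is the midpoint of the pair and the dashed line the median of 76 bp at single unpaired starts. A centre between the starts cannot lie above the solid line. Most points with 1 start covered lie well below it, and the few points above it, at narrow gaps, have the centre outside the interval.

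The share of pairs bound did not follow the gap in 1 direction. It was 5.99% at gaps of up to 100 bp (20 of 334, 3.91 to 9.07), 13.8% at gaps over 100 and up to 200 bp (36 of 260, 10.2 to 18.6), 7.95% at those up to 300 (35 of 440, 5.77 to 10.9), 10.5% at those up to 400 (35 of 333, 7.65 to 14.3) and 10.8% at those up to 500 (22 of 203, 7.27 to 15.9). The median gap was 257 bp in bound pairs (218 to 292) and 248 bp in unbound pairs (241 to 256). Counted by starts, which does not grow with the length of the interval, the shares were 5.84%, 13.3%, 4.77%, 5.86% and 6.16%. The class between 100 and 200 bp stood above the others, and its interval (10.6 to 16.5) overlapped none of theirs. In narrow pairs, however, 1 peak counts for both starts, as in 33 of the 36 bound pairs of this class. This raises the share by starts and makes its interval too narrow. Counted by pairs, the interval of this class overlapped those of all classes above 200 bp. Just outside the limit, neighbours over 500 and up to 600 bp apart were bound in 13.5% (22 of 163) and those up to 1000 bp apart in 13.9% (67 of 483), with 7.04% of their starts covered. Neighbours whose 5′ ends overlap each other, by 1 to 500 bp, were bound in 2 of 99 cases (2.02%, 0.556 to 7.07). Binding of both starts by separate peaks appeared beyond the limit, in 3 pairs with gaps over 500 and up to 1000 bp and in 4 pairs with gaps over 2000 and up to 5000 bp. Unbound pairs seldom had a peak nearby: 5 of 1422 had one within 500 bp of a start. Pairs accounted for 143 of the 546 peaks over a 5′-most coding start (26.2%, 22.7 to 30). This share of peaks cannot be set against the 23.6% of protein-coding genes that are in pairs. A peak over both starts of a pair counts once, whereas a pair counts with each of its genes. Counted by starts without histone genes, 219 of the 636 covered starts were paired, against 3211 of all 13857 starts.

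**Figure D4:**
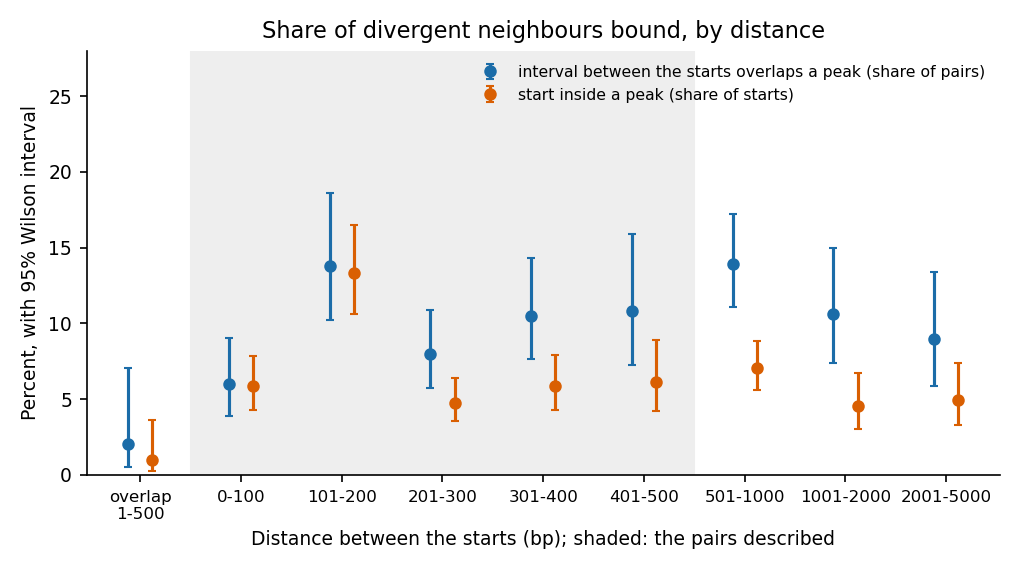
Percent of divergent neighbours bound (blue) and percent of their starts inside a peak (orange) by the distance between the starts in bp, with 95% Wilson intervals and without histone genes; the shaded classes are the pairs described. The class above 100 and up to 200 bp stands at 13.8% of pairs and 13.3% of starts, against 5.99% and 5.84% at up to 100 bp.

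Genes of cytoplasmic ribosomal proteins had the highest share of bound pairs among 10 lists of genes chosen by symbol. Of the 36 pairs with such a gene 17 were bound (47.2%, 32 to 63), against 9.43% of all pairs. The list takes in 5 genes whose symbols end in -like. Of these, RpL7-like, RpLP0-like and RpL24-like are in pairs, and all of those pairs were unbound. The start of the ribosomal protein gene itself was covered in 16 of the 36 (44.4%), against 28 of 57 unpaired genes of the list (49.1%, 36.6 to 61.7), a difference of -4.68 points whose interval is wide (-24.2 to 15.6). The partner's start was covered in 10 of the 17. Of the 8 bound pairs with 1 start covered, the covered start was that of the ribosomal protein gene in 7. Leaving out every ribosomal protein gene as well left 131 of 1534 pairs bound (8.54%, 7.24 to 10), and 6.39% of paired and 3.67% of unpaired starts covered, a difference of 2.72 points (1.84 to 3.69).

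The widest peak at any pair in unique sequence lay at Rok and RpS19a. It was 754 bp wide and covered both starts, 480 bp apart. Dhdds and RpS14a had a peak of 583 bp over a gap of 391 bp, and CG6693 and RpL3 one of 489 bp over 255 bp. In these 3 pairs the peak reached past both starts although the gap was wide. Peaks of ordinary width at wide gaps lay on the ribosomal protein side. At CG12929 and RpL31 the peak was 349 bp wide and its centre stood 57 bp upstream of RpL31 and 422 bp upstream of CG12929. The peak of Dph4 and Spec2, which share a start, and RpL13A was centred 126 bp upstream of RpL13A. At RpL28 and eIF1, the factor that guards start-codon choice, the peak covered only the RpL28 start, with the centre 130 bp upstream of it and 252 bp upstream of eIF1. CG17271 and RpS20 was the exception, with the centre 99.5 bp upstream of CG17271 and 234 bp upstream of RpS20, whose 5′-most start was not covered.

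At narrow gaps both genes were covered. The peak of Sgf29, a subunit of the SAGA coactivator, and RpL29 was 348 bp wide and centred 0.5 bp from the midpoint of starts 122 bp apart. That of RpL19 and CG3776 was 308 bp wide over a gap of 131 bp, with its centre 13.5 bp upstream of RpL19. Ripalpha and RpL7, 30 bp apart, had a peak of 328 bp. The 19 unbound ribosomal protein pairs included RpS13 and CSN8, CG7130 and RpLP0, BCAS2 and RpL4, and Dref and RpL13, shown above. Their gaps lay between 36 and 465 bp, within the range of the bound ones.

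Other lists were bound at shares nearer to that of all pairs. Mitochondrial ribosomal protein genes were the most often paired, with 51 of 73 genes (69.9%), yet 4 of their 51 pairs were bound (7.84%, 3.09 to 18.5). Of these, mRpS21 and Droj2, a DnaJ-type chaperone, had both starts covered, and at mRpL33 and norpA, the phospholipase C of phototransduction, the peak covered only norpA with its centre 111 bp upstream. Proteasome genes had 3 of 20 pairs bound, oxidative phosphorylation genes 4 of 33, translation factors 2 of 18, and Polycomb and trithorax group genes 2 of 12. ATPsynF, a subunit of the ATP synthase, and CG3548 had a peak of 357 bp centred 8 bp from the midpoint. At CG34015 and eIF4H1 the peak covered eIF4H1. No pair with an aminoacyl-tRNA synthetase gene was bound (0 of 19, which allows a share of up to 15.8%), and of the pairs with genes of Mediator and the general transcription factors 1 of 42 was (2.38%, 0.422 to 12.3). DNA replication and repair genes and spliceosome genes had 1 bound pair of 22 and 1 of 12. In 9 of the 10 lists the interval of the difference between paired and unpaired members included 0. The exception was Mediator and the general transcription factors, where the starts of 1 of 43 paired genes (2.33%) and of 7 of 36 unpaired genes (19.4%) were covered, a difference of -17.1 points (-32.8 to -3.38). The intervals were not adjusted for the 10 lists looked at, and this one rests on few covered starts. Translation factors had 1 of 18 paired and 8 of 35 unpaired starts covered (difference -17.3, -34.1 to 5.6). In all, 34 of the 148 bound pairs held a gene of any list (23%, 16.9 to 30.4), against 258 of all 1570 pairs (16.4%, 14.7 to 18.3).

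The largest gaps showed the one-sided pattern most plainly. Pka-C1, the catalytic subunit of protein kinase A, and hoip, a protein of small nucleolar ribonucleoproteins, start 494 bp apart. Their peak was centred 45 bp upstream of Pka-C1 and 449 bp upstream of hoip. At Cpsf160, a cleavage and polyadenylation factor, and Asx, whose protein is a partner of Cyclin G, the centre lay 43 bp upstream of Asx and 427 bp upstream of Cpsf160. CG8173 and raskol, a Ras GTPase-activating protein, had the centre 141 bp upstream of raskol, and Zip99C and CG34133 had it 187 bp upstream of Zip99C. TAF1B, an initiation factor of RNA polymerase I, and Invadolysin, with a peak of 573 bp, and Lnpk and rgr, with one of 633 bp, had both starts covered at gaps of 484 and 453 bp. At the other end, Diap2, a caspase inhibitor, and bug are annotated with the same start position, and the peak of 354 bp was centred 45.5 bp from it, on the Diap2 side. CG12213 and GC1, 17 bp apart, had the centre 95.5 bp from the midpoint, outside the interval.

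In 5 pairs the peak lay between the starts and reached neither. Peaks of 239 bp at Slh and oaf, 222 bp at CG32590 and Flo2, and 211 bp at TH1 and mei-41 fitted whole into gaps of 284, 270 and 260 bp, with the centre 2, 15.5 and 5 bp from the midpoint. At loco, a regulator of G-protein signalling, and wake the centre was 21.5 bp from it. RN-tre and mam, the Notch coactivator mastermind, differed, with the peak on the mam side and its centre 137 bp upstream of mam. The starts of such pairs count as uncovered, although the peak is in the shared promoter region.

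Bound pairs outside the lists included other well-known regulators, which were chosen after their values were seen. Both starts were covered at CG6685 and Dronc, an initiator caspase, with a peak of 267 bp over a gap of 162 bp. The same held for fs(1)h, a bromodomain protein, and mys, the beta subunit of integrins, 209 bp apart, and for S, which acts in the export of EGF receptor ligands, and ast, 133 bp apart. Rack1, a scaffold protein of the ribosome, and mts, the catalytic subunit of protein phosphatase 2A, had a peak of 238 bp centred 0.5 bp from the Rack1 start and 334 bp upstream of mts. At tefu, the fly ATM kinase, and Hsc70-4, a chaperone, the peak covered only Hsc70-4, with the centre 136 bp upstream of it. At Cdk7, a kinase of TFIIH, and snf, a spliceosomal protein, it covered only snf.

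Bound and unbound pairs were close in most of the sequence features counted. Within 300 bp of the midpoint, the DRE was found in 29.1% of bound pairs (43 of 148, 22.3 to 36.8) and in 24.1% of unbound pairs (343 of 1422, 22 to 26.4), and Motif 7 in 28.4% and 27.4%. Motif 1 was found in 21.6% of bound pairs (15.8 to 28.9) and 12.2% of unbound pairs (10.6 to 14), and CGATA in 87.8% (81.6 to 92.2) and 76.8% (74.5 to 78.9), so that for these motifs the intervals did not overlap. Motif 6 was in 9.46% and 5.98%, the E-box CACGTG in 12.2% and 9.77%, GAGAG, the core of the GAGA factor site, in 37.2% and 39.4%, and TATAAA in 58.8% and 63.8%. Windows of equal length around all protein-coding starts held the DRE in 10.6%, CGATA in 64.8%, Motif 1 in 5.06%, Motif 6 in 2.64%, Motif 7 in 12.9%, CACGTG in 7.94%, GAGAG in 49.3% and TATAAA in 60.4%. Those windows are centred on 1 start, whereas a pair window holds both promoters. Around covered unpaired starts the DRE was in 25.2%, CGATA in 83%, Motif 1 in 11.5% and Motif 7 in 19.4%. Around unpaired starts not covered the shares were 6.66%, 60.4%, 3.04% and 9.41%. These counts cover both strands, and every DRE is also counted as CGATA. The median GC content was 40.2% at bound pairs (38.6 to 41.6) and 38.9% at unbound pairs (38.6 to 39.1). A match to a motif does not show that its factor was there.

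Motifs were also counted per start, in windows from 100 bp upstream to 50 bp downstream. Covered starts of bound pairs and starts of unbound pairs had nearly the same share with a DRE, but not with CGATA or TATAAA. The DRE was near 15.9% of covered starts of bound pairs (11.6 to 21.4), 13.4% of their uncovered starts (7.66 to 22.4) and 15.1% of starts of unbound pairs (13.8 to 16.4). At unpaired starts it was near 19.7% of covered starts (16.1 to 23.7) and 4.87% of those not covered (4.47 to 5.3), and near 7.63% of all starts. CGATA was near 60.7% of covered starts of bound pairs (54.1 to 67), 47.6% of their uncovered starts (37.1 to 58.2) and 49% of starts of unbound pairs (47.1 to 50.8). It was near 62.6% of covered unpaired starts, 28.4% of unpaired starts not covered and 34.4% of all starts. TATAAA was near 12.6% of covered starts of bound pairs (8.82 to 17.7), 22% of their uncovered starts (14.4 to 32.1) and 22.4% of starts of unbound pairs (20.9 to 24). It was near 24.1% of all starts. For CGATA and TATAAA the intervals of covered and uncovered starts of bound pairs overlapped. Initiators (TCAGTT or its variant TCAGTC, and likewise the spelling TCATTT or its variant TCATTC, on the gene's strand within 10 bp of the start) were at 2.8% of covered starts of bound pairs and 5.73% of starts of unbound pairs, against 3.6% of covered unpaired starts, 14.7% of unpaired starts not covered and 12.1% of all starts. In the 68 pairs with a gap above 200 bp and 1 start covered, the DRE was near the covered start in 13 and near the other in 8. The counts were 39 and 32 for CGATA, 13 and 8 for Motif 7, 3 and 1 for Motif 6, and 2 and 2 for CACGTG. They went the other way for Motif 1 (5 and 7), GAGAG (6 and 7), TATAAA (12 and 17) and the initiator (2 and 5).

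The difference between paired and unpaired starts was not the same at starts with and without these motifs. Among starts without a DRE, 6.75% of paired starts (180 of 2666) and 3.33% of unpaired starts (335 of 10066) were covered, a difference of 3.42 points (2.46 to 4.49). Among starts with a DRE the order turned round, with 7.17% of paired starts (34 of 474, 5.18 to 9.86) and 14.1% of unpaired starts (82 of 580, 11.5 to 17.2) covered, a difference of -6.96 points (-10.6 to -3.23). With CGATA the shares were 8.32% and 8.25%, and without it 5.32% of paired and 2.09% of unpaired starts. For starts with any of the DRE, Motif 1, Motif 6 or Motif 7 they were 8.11% of paired and 11.5% of unpaired starts (difference -3.43, -5.75 to -1.06), and for starts with none of them 6.12% and 2.78% (difference 3.33, 2.31 to 4.5). Taken alone, Motif 6 did not show this order: with it 10.9% of paired and 7.63% of unpaired starts were covered (difference 3.24, -4.37 to 11.9). The differences with Motif 1 (-2.19, -7.55 to 3.46) and with Motif 7 (-2.54, -6.08 to 1.07) had intervals that include 0. In a narrow pair 1 motif counts for both starts, and this split was chosen after the motif shares had been seen.

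**Figure D5:**
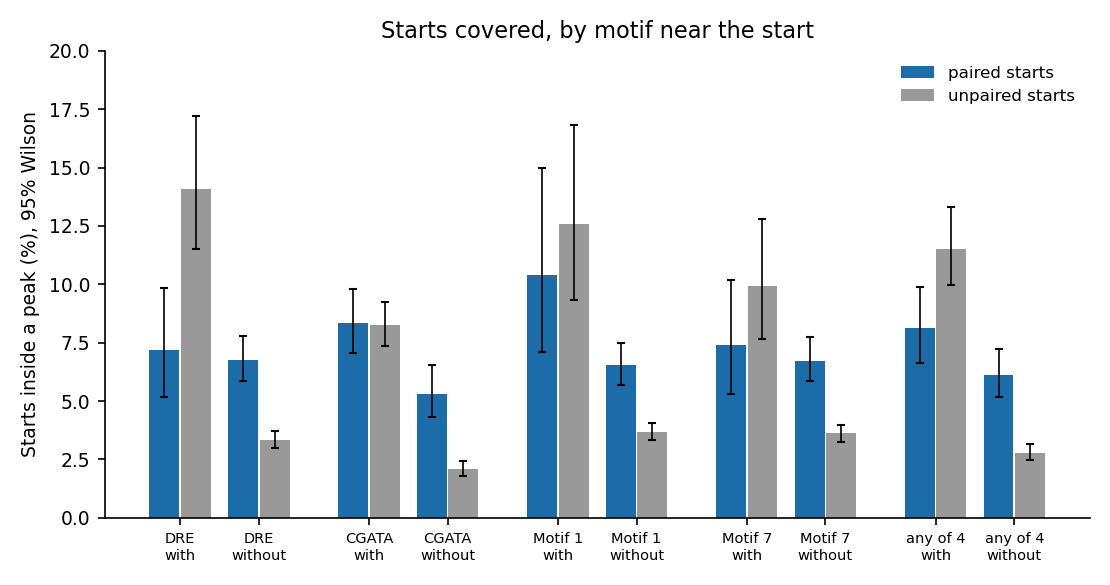
Percent of starts inside a peak among starts with and without each motif from 100 bp upstream to 50 bp downstream, for paired starts (blue) and unpaired starts (grey), with 95% Wilson intervals and without histone genes; any of 4 stands for the DRE, Motif 1, Motif 6 or Motif 7. Blue bars are higher at starts without a motif, and with a DRE the grey bar is higher (7.17% of paired and 14.1% of unpaired starts).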

How the data were processed

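The authors deposited 1 list of peak positions (sequence, start and end) with no values. Per their methods and the submitters' processing notes, reads were checked with FastQC and aligned to dm6 with Bowtie2 2.1.0, peaks were called with MACS2 2.1.0 for each ChIP replicate against its input, peaks reproducible by the irreproducible discovery rate at 0.05 were retained, and overlapping peaks were fused with bedtools. The mock libraries were not used here, and no read depth was used.

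Genes came from Ensembl release 115 (FlyBase 6.54) on the same build, without transposable elements (18358 genes on all sequences), and bases from the RefSeq dm6 sequence. A pair was bound when a peak overlapped the interval by at least 1 bp, and a start was covered when it lay inside a peak. A peak was unique when at least 90% of its 75-bp words occur once in the genome. Shares carry 95% Wilson intervals, a share of 0 the limit of 3 counts over the total, differences Newcombe intervals, and medians order-statistic intervals. No test was run, because the list has no replicate values. Analyses used Python 3.11.15, numpy 2.4.6 and statsmodels 0.14.6. The pair finding and the intervals were tested on simulated data.

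The pairs and the gene lists were chosen with earlier results of these data known. Pairs named were the bound pairs of the ribosomal protein, translation factor, proteasome or oxidative phosphorylation lists with the widest peaks (16), those with the 5 smallest and the 5 largest gaps, the 5 widest unique peaks, the 5 one-sided pairs with the largest gaps, and the unbound ribosomal protein pairs. A few pairs that met this rule are not reported here. Others, the pairs of the remaining lists among them, were chosen after their values were seen. Alternatives changed the gap limit, the overlap, the peaks used, the genes allowed between or across the starts, the starts, the motif window and the genes and regions left out.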

Additional observations from a re-analysis of the deposited data

How the results depend on the processing

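The values here include the histone pairs: 11.7% of pairs bound, 59.3% of bound pairs with both starts covered, 9.14% of paired starts covered, 5.05 points between paired and unpaired starts, a median centre offset of 58 bp, a gap difference of -54 bp and a GC difference of 3.49 points (bound minus unbound medians), and the DRE at 22.8% of bound pairs. Without the histone genes, an alternative added after seeing the data, they were 9.43%, 48%, 6.82%, 2.9 points, 42.5 bp, 9 bp (the sign turned) and 1.25 points. Peaks in unique sequence alone gave 9.18%, 48%, 6.65%, 2.93 points, 42.5 bp, 13.5 bp (the sign turned) and 1.08 points. The wider peaks, those at or above the median width, gave 4.96%, 73.8%, 4.22%, 3.13 points, 148 bp and a GC difference of 8.57 points. A limit of 300 bp gave 78% with both starts covered, 10.7% of paired starts, 6.46 points and the DRE at 16.7%. A limit of 1000 bp gave 45.7% with both, an offset of 100 bp, a gap difference of -2 bp and a GC difference of 1.33 points. Leaving out repeat-rich bins gave 9.21% of pairs bound and a difference of 3.11 points.

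Of 160 comparisons with an alternative, 116 stayed within the 95% interval of the value they were set against, 42 fell outside it and 2 turned their sign, both in the gap difference. An overlap of 50 bp, canonical starts and other rules for genes between or across the starts moved none of the 8 values given above. Motifs counted only from start to start gave the DRE at 21.7% of bound pairs, CGATA at 80.4% (88.9% within 300 bp), GAGAG at 28% (50.8%), CACGTG at 4.76% (9.52%) and TATAAA at 50.8% (67.7%). Taking the starts nearest to each other is the same as the main rule by construction, so its comparisons are among the 116 without testing anything. No paired analysis was possible because the list has no value per sample, and no replicate could be left out for the same reason. The list gives no depth, so a pair without a peak is a pair below an unknown limit of detection.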

Other observations

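Outside the histone cluster, 6 pairs lay in 200-kb bins in which more than 30% of the bases are repeats, and 4 of them were bound, by peaks in unique sequence. The cause was not tested. On chromosome 4, 2 of 10 paired starts (20%, 5.67 to 51) and 20 of 70 unpaired starts (28.6%, 19.3 to 40.1) were covered, so that the order of paired and unpaired starts on the large arms was not seen there at this number of genes.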
